A study of Mus musculus with 12 samples.

Results

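Genes of the mitotic spindle, the kinetochore and cytokinesis were followed in mouse bone marrow hematopoietic stem cells (HSCs) sorted by the surface receptor IL27RA. A list of 47 such genes was looked up by gene name in the expression table, and all 47 were found among its 20457 genes. Cells came from C57BL/6 mice aged 2 months (young) or 28 months (old) and were taken as IL27RA- or IL27RA+, which gave 4 groups of 3 libraries: young IL27RA-, young IL27RA+, old IL27RA- and old IL27RA+. Each library was made from 50 sorted cells by Smart-Seq2, a full-length cDNA amplification method without molecular identifiers. The labels name no transgene or treatment and do not state the sort gates for a stem cell. They also do not say whether replicate libraries were made from different mice, so every p-value measures the spread between these libraries alone, and that spread may be technical. The labels of old IL27RA- replicate 1 disagree, 1 of them reading young while the title and age read old, and it was kept as old.

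In a dividing cell, Cdk1 bound to cyclins A and B starts mitosis, and the Plk1 and Aurora kinases build the spindle. Kinetochores then tie chromosomes to microtubules, the spindle checkpoint holds the anaphase-promoting complex back until every chromosome is attached, and the central spindle and a contractile ring split the cell. The transcripts of these genes accumulate late in the cell cycle, and most adult HSCs are quiescent.

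Libraries held 11669083 to 24153167 reads in genes, and the correlation of library pairs was 0.786 to 0.869 inside a group and 0.752 to 0.863 for libraries of different groups. Levels are given as normalized counts, the reads of a gene divided by the library's size factor. A floor of 3 reads corresponds to 1.93 to 3.77 normalized counts, and floors and intervals cover counting error only. The 17 listed HSC identity genes, among them Hlf, Mecom, Procr and Slamf1, had reads in every group, with summed levels of 79432 to 113639. Transcripts of the sorted receptor, Il27ra, did not separate the fractions: the fitted log2 difference between IL27RA+ and IL27RA- was -0.08 ± 0.32 (SE) in old and -0.11 ± 0.32 in young cells. In old IL27RA- replicate 1 the B and plasma cell list summed to 373988, most of it the immunoglobulin gene Igkc at 312300, against 892 to 1979 in the other 11 libraries.

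The mitotic genes were high in all 3 old IL27RA+ libraries and low in all 3 old IL27RA- libraries, and the young libraries lay on both sides. Their summed level was 38744, 27707 and 28492 normalized counts in old IL27RA+ replicates 1 to 3. It was 2898, 3099 and 2848 in the old IL27RA- replicates. The old groups therefore did not overlap, and their means were 31648 ± 6158 (SD, n = 3) and 2948 ± 133. In young IL27RA+ cells the sums were 24730, 31501 and 4613, and in young IL27RA- cells 16607, 4226 and 4402. In this sum, replicates 1 and 2 of young IL27RA+ thus stood near the old IL27RA+ libraries. Its replicate 3 stood at the level of the low libraries and below replicate 1 of young IL27RA-. By detection young IL27RA+ replicate 3 stood higher, with 35 of the 47 genes at 10 normalized counts or more and 2 without a read. In young IL27RA- replicates 2 and 3, 22 and 20 genes reached 10, and 22 and 21 had no read. As a share of all normalized counts, the 47 genes took 0.176% to 0.251% in old IL27RA+ and 0.0169% to 0.0193% in old IL27RA- libraries.

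**Figure D1:**
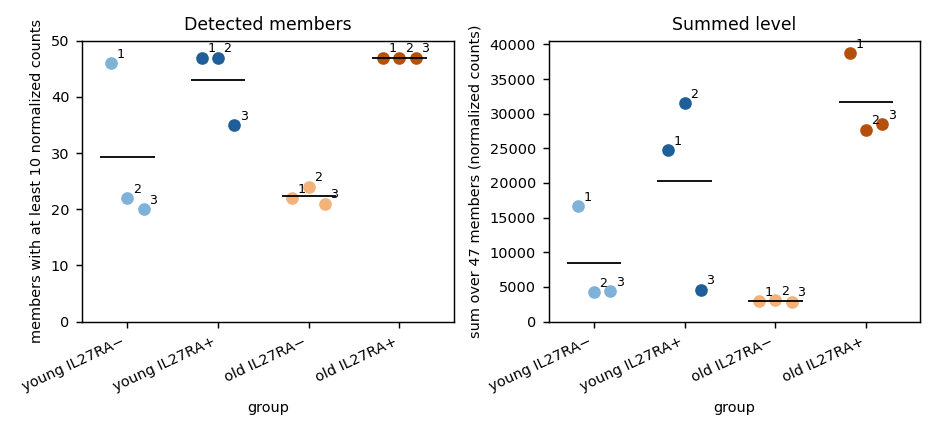
The 47 mitotic genes in each of the 12 libraries, by group: how many reach 10 normalized counts (left) and their summed level (right), with each library as a point numbered by replicate and each line a group mean. The 3 old IL27RA+ libraries sum to 27707 or more normalized counts and the 3 old IL27RA- libraries to 3099 or less, while young IL27RA- replicate 1 (16607) and young IL27RA+ replicate 3 (4613) stand apart from the other libraries of their groups.

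All 47 genes reached 10 normalized counts in every old IL27RA+ library. In old IL27RA- libraries 22, 24 and 21 of them did, and 22, 12 and 13 had no read at all. Over the 3 old IL27RA- libraries together, 6 genes had 0 reads (Ccnb2, Bub1, Kif2c, Kif18b, Spag5 and Anln), 7 had 1 to 3 reads (Aurkb, Nuf2, Ska1, Kif4, Hmmr, Ect2 and Fam64a), and 34 had more. At the other end, 8 genes reached 10 in all 12 libraries: Ccna2, Incenp, Mad2l1, Cdc20, Cenpa, Kif23, Cit and Racgap1. The highest group mean was in old IL27RA+ for 40 genes and in young IL27RA+ for 7. The lowest was in old IL27RA- for 43 genes and in young IL27RA- for 4. The young means average over libraries that lay far apart. Young IL27RA+ replicates 1 and 2 were above the lowest old IL27RA+ library for 26 and 27 of the 47 genes. Young IL27RA- replicates 2 and 3 had no read for 22 and 21 genes, as many as or nearly as many as old IL27RA- replicate 1. In libraries of 50 cells, fewer dividing cells and less of each transcript per dividing cell cannot be told apart.

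**Figure D2:**
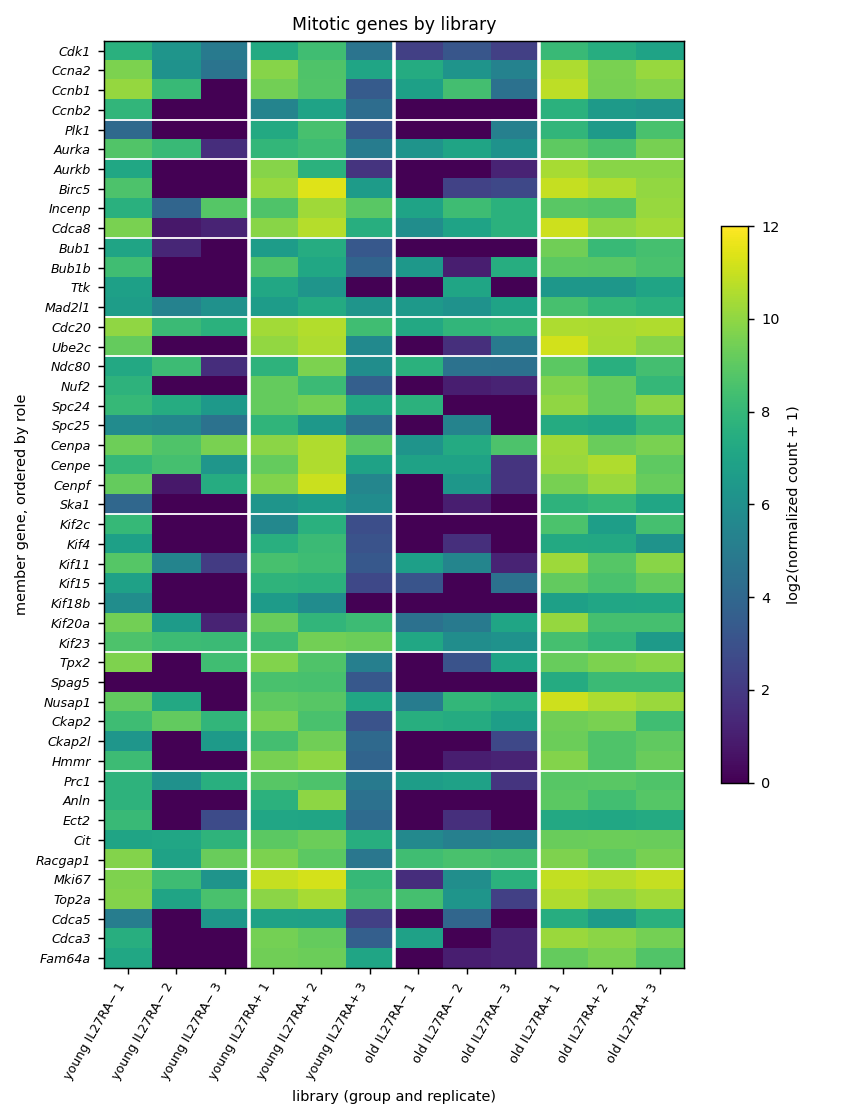
Level of each of the 47 mitotic genes (rows, ordered by role) in each of the 12 libraries (columns, by group), as log2(normalized count + 1). All 47 rows are at 10 normalized counts or more in the 3 old IL27RA+ columns, and 12 to 22 rows are at 0 reads in each old IL27RA- column.

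The first comparison asked how old IL27RA+ differed from old IL27RA- cells. All 47 genes had a positive fitted log2 difference, against 51.9% of the 14803 genes tested. The median difference over the 47 was 5.81, against 0.02 over all genes tested, and the range ran from 0.99 for Racgap1 to 9.66 for Aurkb. The groups did not overlap, with every old IL27RA+ library above every old IL27RA- library, for 44 of the 47, against 7.23% of all genes tested, and the exceptions were Ttk, Ndc80 and Kif23. Differences over 2 on the log2 scale were found for 42 (6.67% of all genes tested). The ratio of group means had a median of 11.99 over the 34 genes with more than 3 reads in old IL27RA- cells, and of 17.44 over all 47 with the others at their bound or ratio. All differences were taken from log2(normalized count + 1), where the added 1 shrinks those of weakly expressed genes.

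None of the 47 passed the test. With limma and Benjamini-Hochberg adjustment over all genes tested, 0 of 47 reached an adjusted p under 0.05, a level that 3 genes in the whole table reached higher in old IL27RA+ (0.0203%). At an unadjusted p under 0.05 there were 37 of 47, against 3.72% of all genes tested, and limma voom on the recovered reads also called 0, with 39 at that unadjusted level. The spread between libraries that enters the test is shared by all 4 groups, so it includes the split among the young libraries: without young IL27RA- replicate 1, limma called 12 of the 47, without its replicate 2 or without young IL27RA+ replicate 3 it called 2. Dropping replicate 3 of young IL27RA- gave 1 call, as did dropping replicate 1 of old IL27RA-. With the 2 old groups fitted alone it called 14. With library weights, which are estimated from the spread of these same data, it called 23. Calls over all genes rose as well without young IL27RA- replicate 1, with the old groups alone and with library weights. Those counts are given in the last section.

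**Figure D3:**
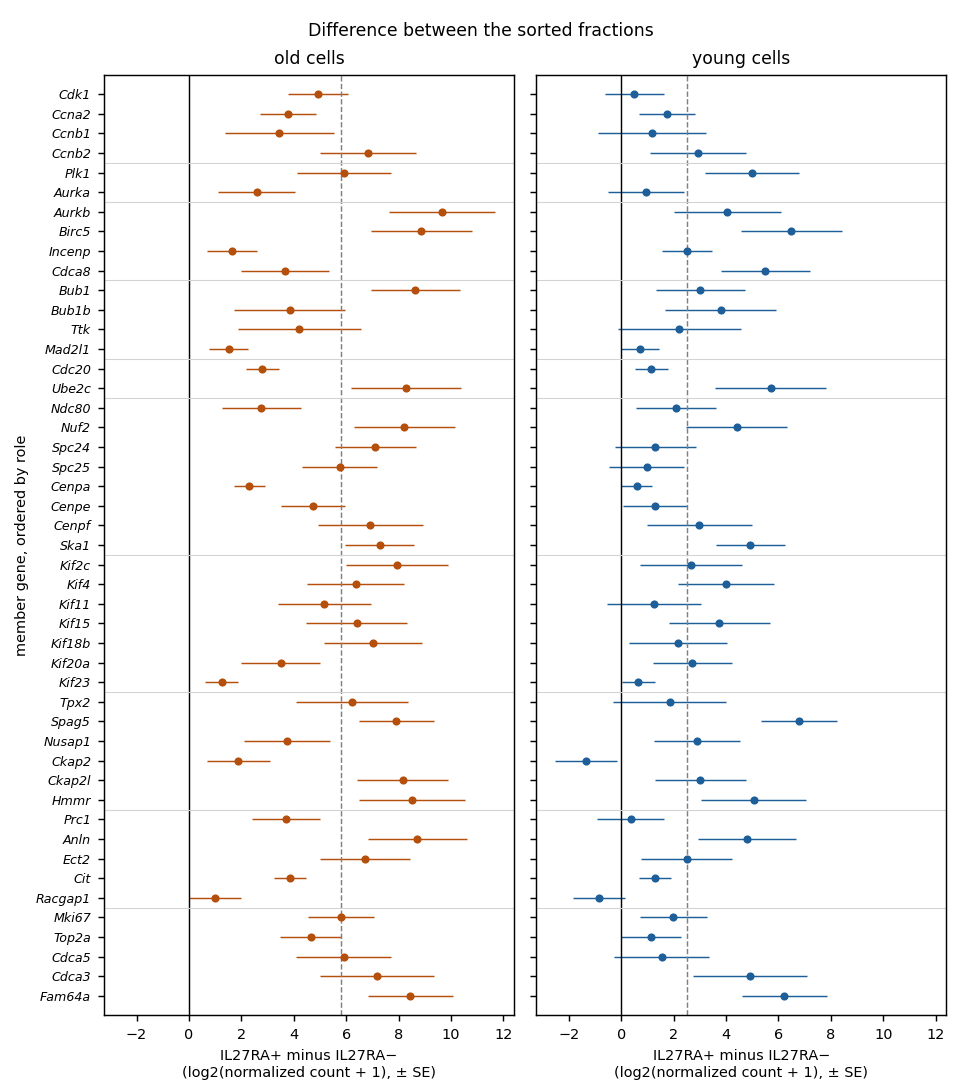
Fitted log2 difference between IL27RA+ and IL27RA- cells for each of the 47 mitotic genes, in old and in young cells, with bars of ± SE from limma. In old cells all 47 lie above 0, from 0.99 to 9.66, and in young cells 45 do, with a median of 2.49.

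Among the genes that start mitosis, Cdk1, the kinase itself, stood at 277, 176 and 122 normalized counts in old IL27RA+ and at 3.85, 8.30 and 3.77 in old IL27RA- libraries. The lowest old IL27RA+ library was well above the highest old IL27RA- library. In young cells Cdk1 was at 162, 319 and 23.8 (IL27RA+) and at 195, 76.6 and 29.0 (IL27RA-), which overlapped. Its log2 difference was 4.93 ± 1.13 (SE) in old cells (limma adjusted p = 0.169) and 0.50 ± 1.13 in young cells. Ccnb2, a B-type cyclin, had no read in any old IL27RA- library and was at 205, 92.9 and 75.0 in old IL27RA+, at least 38.2-fold higher against a floor of 3 reads per library. In young IL27RA- cells it was found in replicate 1 alone, at 239, with 0 in the other two, and young IL27RA+ cells had 42.3, 124 and 18.8. The other cyclins kept some transcript in old IL27RA- cells, with Ccna2 at 168, 72.6 and 38.9 and Ccnb1 at 114, 344 and 21.3. Both were higher in every old IL27RA+ library, at 759 or more and 739 or more.

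The kinases Plk1 and Aurka act at mitotic entry and at the centrosomes. Plk1 was at 238, 92.9 and 371 in old IL27RA+ and at 0, 0 and 36.4 in old IL27RA- libraries, a log2 difference of 5.92 ± 1.79 (limma adjusted p = 0.435). It was low in young IL27RA- cells too, at 15.9, 0 and 0, and young IL27RA+ cells had 156, 358 and 8.78. Aurka was present in most libraries: old IL27RA+ had 515, 374 and 736, and old IL27RA- had 72.2, 127 and 69.1. Young cells overlapped for Aurka, at 245, 312 and 31.4 (IL27RA+) and 423, 280 and 1.93 (IL27RA-). Its difference in old cells, 2.59 ± 1.46 (limma adjusted p = 1), has a 95% interval that spans 0 although the old groups did not overlap.

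The chromosomal passenger complex, which corrects chromosome attachments and then moves to the cleavage site, has Aurkb as its kinase. Aurkb had the largest difference of the 47 in old cells, with 1396, 923 and 929 in old IL27RA+ and 0, 0 and 1.26 in old IL27RA-. The latter is a single read, and the ratio of summed reads scaled for depth, 3069, has a counting interval of 550.5 to 121300. In young cells Aurkb was at 896, 201 and 2.51 (IL27RA+) and 141, 0 and 0 (IL27RA-), which overlapped through replicate 3 of the first and replicate 1 of the second. Birc5, the survivin subunit, was at 1944, 1542 and 1072 in old IL27RA+ and at 0, 4.15 and 5.02 in old IL27RA-. Its young values were 1125, 2686 and 96.6 (IL27RA+) and 399, 0 and 0 (IL27RA-). The old differences were 9.66 ± 2.04 for Aurkb and 8.88 ± 1.92 for Birc5 (limma adjusted p = 0.142 for each). The scaffold Incenp differed least in this complex, by 1.64, with 123 to 311 in old IL27RA- and 435 to 1118 in old IL27RA+, and Cdca8 (borealin) was at 57.8 to 202 and 1072 to 2160.

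Of the spindle checkpoint genes, Bub1, a checkpoint kinase, had no read in old IL27RA- cells and was at 667, 271 and 352 in old IL27RA+, at least 132-fold higher. Young IL27RA- libraries had 128, 1.43 and 0 and young IL27RA+ libraries 99.6, 170 and 8.78, which overlapped. Its old difference was 8.64 ± 1.69 (limma adjusted p = 0.0972). Mad2l1, which inhibits Cdc20 while chromosomes are unattached, was at 367, 249 and 198 in old IL27RA+ and at 88.6, 69.5 and 123 in old IL27RA-. It was present in all young libraries, at 99.6, 159 and 75.2 (IL27RA+) and 101, 38.6 and 66.3 (IL27RA-), and its old difference was 1.52 ± 0.73 (limma adjusted p = 0.940). The kinase Ttk overlapped between the old groups because old IL27RA- replicate 2 held 133, above all 3 old IL27RA+ libraries (79.5 to 127), while the other 2 old IL27RA- libraries had no read.

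Cdc20 and Ube2c serve the anaphase-promoting complex, as its activator and as an enzyme that delivers ubiquitin. Cdc20 was at 1458, 1446 and 1526 in old IL27RA+ and at 151, 238 and 261 in old IL27RA-, and the 3 libraries of each group lay close together. Young libraries had 1302, 1584 and 315 (IL27RA+) and 1025, 287 and 201 (IL27RA-). Its old difference was 2.80 ± 0.63 (limma adjusted p = 0.155). Ube2c was at 2334, 1381 and 903 in old IL27RA+ and at 0, 2.08 and 30.1 in old IL27RA-, a difference of 8.29 ± 2.11 (limma adjusted p = 0.250). In young IL27RA- cells it had reads in replicate 1 alone (577), and young IL27RA+ cells had 1063, 1469 and 51.4.

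Kinetochore and centromere genes included 8 of the 47. Of these, 7 did not overlap between the old groups and were higher in IL27RA+, against 44 of all 47 and 7.23% of all genes tested. Ska1, part of the complex that couples kinetochores to microtubules, was at 213, 265 and 136 in old IL27RA+ and at 0, 1.04 and 0 in old IL27RA-. Young IL27RA+ libraries had 75.2, 102 and 56.4 and young IL27RA- libraries 15.1, 0 and 0, so that Ska1 did not overlap between the young groups either. Its differences were 7.29 ± 1.32 in old cells (limma adjusted p = 0.0972) and 4.92 ± 1.32 in young cells (limma adjusted p = 0.303). Spc24, a subunit of the Ndc80 complex, was at 1023, 576 and 955 in old IL27RA+ and at 211, 0 and 0 in old IL27RA-. All of its old IL27RA- reads were in replicate 1, so without that library only values of 0 remain there. The call made without it (limma adjusted p = 0.000756) thus followed a removal that this gene's own values single out. That call is not support beyond the fit of all 12 libraries, where the old difference was 7.12 ± 1.55 (limma adjusted p = 0.142). Young cells overlapped for Spc24, at 566, 716 and 149 (IL27RA+) and 263, 172 and 88.2 (IL27RA-). Nuf2, another subunit, was at 850, 564 and 253 in old IL27RA+ and at 0, 1.04 and 1.26 in old IL27RA-, with 572, 289 and 11.3 in young IL27RA+ and 216, 0 and 0 in young IL27RA-. The third subunit, Ndc80, overlapped, since old IL27RA- replicate 1 held 203 and old IL27RA+ replicate 2 held 187. Cenpa, the histone that marks centromeres, was present in every library, at 72.2, 163 and 403 in old IL27RA- and 610 to 1265 in old IL27RA+.

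The 7 mitotic kinesins move chromosomes, push spindle poles apart or trim microtubule ends. Kif2c and Kif18b, which act on microtubule ends, had no read in any old IL27RA- library. Kif2c was at 392, 105 and 352 and Kif18b at 113, 138 and 143 in old IL27RA+, at least 86.9-fold and 40.3-fold higher. In young IL27RA- cells both had reads in replicate 1 alone (265 and 58.1). Young IL27RA+ libraries had 47, 193 and 6.27 for Kif2c and 94.9, 55.7 and 0 for Kif18b. Kif4, a chromosome-arm kinesin, was at 157, 149 and 71.5 in old IL27RA+ and at 0, 2.08 and 0 in old IL27RA-, and young cells had 190, 287 and 7.52 (IL27RA+) and 112, 0 and 0 (IL27RA-). The old differences of Kif2c, Kif18b and Kif4 were 7.94 ± 1.94, 7.04 ± 1.87 and 6.37 ± 1.84, with limma adjusted p of 0.214, 0.283 and 0.382. Kif23, a central spindle motor, was an exception. It was at 347, 240 and 92.6 in old IL27RA+ and 143, 58.1 and 67.8 in old IL27RA-, which overlapped, and young libraries were at 284 to 706.

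Among spindle assembly genes, Spag5 (astrin), which stabilizes spindle poles and kinetochore fibres, was found in IL27RA+ libraries alone. It was at 165, 293 and 287 in old IL27RA+ and at 372, 366 and 8.78 in young IL27RA+, and it had no read in any of the 6 IL27RA- libraries. Against floors of 3 reads per library it was at least 76.3-fold higher in old and 115-fold higher in young IL27RA+ cells, with log2 differences of 7.92 ± 1.44 (limma adjusted p = 0.0972) and 6.78 ± 1.44 (limma adjusted p = 0.195). Ckap2l, a spindle protein, was at 622, 410 and 545 in old IL27RA+ and at 0, 0 and 5.02 in old IL27RA-. Young cells overlapped for it, at 340, 680 and 16.3 (IL27RA+) and 78.8, 0 and 92.7 (IL27RA-). Hmmr, which helps to place the spindle, was at 883, 417 and 613 in old IL27RA+ and at 0, 1.04 and 1.26 in old IL27RA-, with 748, 992 and 13.8 in young IL27RA+ and 302, 0 and 0 in young IL27RA-. The old differences were 8.16 ± 1.74 for Ckap2l and 8.52 ± 2.02 for Hmmr (limma adjusted p = 0.142 and 0.199). Nusap1 and Ckap2 kept more transcript in old IL27RA- cells, at 31.8 to 245 and 105 to 180.

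Cit and Anln act in cytokinesis, Cit as the citron kinase of the midbody and Anln as anillin of the contractile ring. Cit varied little within the old groups, at 619, 628 and 616 in IL27RA+ and 49.1, 36.3 and 41.4 in IL27RA-. Its old difference of 3.86 ± 0.60 had the smallest adjusted p of the 47, which lay just above the threshold (limma adjusted p = 0.05001). Over its 20 alternative settings that p ran from 0.00324 to 0.458. Young cells had 495, 633 and 181 (IL27RA+) and 128, 135 and 219 (IL27RA-) for Cit, which overlapped. Anln had no read in old IL27RA- and was at 498, 330 and 451 in old IL27RA+, at least 131-fold higher, with a difference of 8.72 ± 1.88 (limma adjusted p = 0.142). In young cells it was at 211, 991 and 21.3 (IL27RA+) and 217, 0 and 0 (IL27RA-). Racgap1, whose product binds Kif23 in the central spindle, had the smallest difference of all, with 319, 379 and 342 in old IL27RA- and 527 to 822 in old IL27RA+.

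The last 5 genes act on chromosome structure or are less well placed. Mki67, which coats mitotic chromosomes and is the usual proliferation marker, was at 1912, 1645 and 2003 in old IL27RA+ and at 1.93, 60.2 and 200 in old IL27RA-. Young libraries had 1949, 2384 and 265 (IL27RA+) and 830, 313 and 74.0 (IL27RA-), which overlapped. Fam64a was at 580, 766 and 434 in old IL27RA+ and at 0, 1.04 and 1.26 in old IL27RA-, with 671, 640 and 133 in young IL27RA+ and 139, 0 and 0 in young IL27RA-. The old differences were 5.81 ± 1.27 for Mki67 and 8.44 ± 1.62 for Fam64a (limma adjusted p = 0.142 and 0.0972). Top2a, the topoisomerase that untangles sister chromatids, was at 351, 75.8 and 3.77 in old IL27RA- and 1037 to 1531 in old IL27RA+.

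The second comparison set young IL27RA+ against young IL27RA- cells. Of the 47 genes 45 had a positive difference, against 52.3% of all genes tested, and Ckap2 (-1.35) and Racgap1 (-0.84) were the exceptions. The median was 2.49, against 0.04 over all genes tested. The groups did not overlap for 2 of 47, Ska1 and Spag5, against 5.05% of all genes tested. With limma 0 of 47 were called (0.00676% of all genes tested were called higher), 14 had an unadjusted p under 0.05 (4.57%), and limma voom called 0, with 21 at that unadjusted level. Within each young group 1 library stood apart. Young IL27RA- replicate 1 was the highest of its group for 39 genes, and young IL27RA+ replicate 3 was the lowest of its group for 44. The first exceeded the second for 42 of the 47. Without young IL27RA- replicate 1 limma called 4 members and the median was 4.14, and without young IL27RA+ replicate 3 it called 1. Calls over all genes in these fits are not given here, so the member calls cannot be set against them.

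The age comparisons had medians of opposite sign in the 2 fractions. Old minus young IL27RA- differences were positive for 11 of 47 genes, against 52.1% of all genes tested, with a median of -1.73 against 0.04 over all genes tested. The groups did not overlap for 5 genes, Cdk1, Cenpa, Kif23, Ckap2 and Cit, all lower in old cells (6.71% of all genes tested). With limma 0 of 47 were called (0.155% of all genes tested were called lower), and 8 had an unadjusted p under 0.05 (5.8%). This median rested on 1 library: without young IL27RA- replicate 1 it was 0.34, and 1 gene was called, as was 1 gene without old IL27RA- replicate 1. Calls over all genes in those fits are not given here either. With every library kept, Cdk1 had the smallest adjusted p of the 47, with a difference of -3.68 ± 1.13 (limma adjusted p = 0.178). Old minus young IL27RA+ differences were positive for 44 of 47, against 53% of all genes tested, with a median of 1.33 against 0.05. The old libraries stood above all young ones for 11 genes (9.09% of all genes tested): Ccnb1, Aurka, Aurkb, Bub1, Mad2l1, Ska1, Kif11, Kif15, Kif18b, Nusap1 and Ect2. With limma 0 were called (0.345% of all genes tested were called higher) and 0 had an unadjusted p under 0.05 in that direction (5.39%), while 1 gene, Kif23, had one in the other direction (-1.36 ± 0.63), against 3.49% of all genes tested. Without young IL27RA+ replicate 3, which was below every old IL27RA+ library for 45 of the 47 genes, the median was 0.17. In both fractions limma voom called 0 of the 47.

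Whether the difference between fractions itself differed between ages was tested as an interaction. The old difference exceeded the young one for 45 of 47 genes, against 50.2% of all genes tested, and the median excess was 2.58, against 0.01. With limma 0 of 47 were called (0% of all genes tested), and limma voom called 0. At an unadjusted p under 0.05 there were 6, Cdk1, Bub1, Spc24, Spc25, Cit and Top2a, against 2.98% of all genes tested. Cit had an excess of 2.56 ± 0.85 with a 95% interval of 0.74 to 4.38, and Cdk1 one of 4.43 ± 1.60 with an interval of 1.01 to 7.84 (limma adjusted p = 0.872 for each). The median excess ranged from 1.24 to 3.53 as single libraries were left out.

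Other genes of the cell cycle were counted from lists of related genes. Of 43 other mitotic genes that passed the filter on low values, 41 were higher in old IL27RA+ than in old IL27RA- cells, 34 without overlap against 7.23% of all genes tested, and their median difference was 4.58. Pttg1 (securin), the inhibitor of the enzyme that cuts cohesin, was without overlap the other way, at 310 to 540 in old IL27RA+ and 545 to 1492 in old IL27RA-. Of the 8 condensin genes, whose products compact chromosomes, all were higher, by a median of 0.89, and Ncaph rose by the test (8.54 ± 0.91, limma adjusted p = 0.00216), from 0, 0 and 1.26 to 505, 460 and 493. Ncaph also fell by the test from young to old IL27RA- cells, by 7.06 on the log2 scale (limma adjusted p = 0.00442). The old fraction comparison had 0 calls over all genes with limma voom, so the rise of Ncaph was not called there. Replication genes had a smaller median, 1.20 over 30 genes, with 20 that did not overlap, against that same 7.23%, led by Tyms at 935 to 1156 in old IL27RA+ and 144 to 235 in old IL27RA- (limma adjusted p = 0.0636). The core of the anaphase-promoting complex (14 genes) and cohesin (12 genes), which cells also need outside mitosis, had medians of 0.07 and 0.11.

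**Figure D4:**
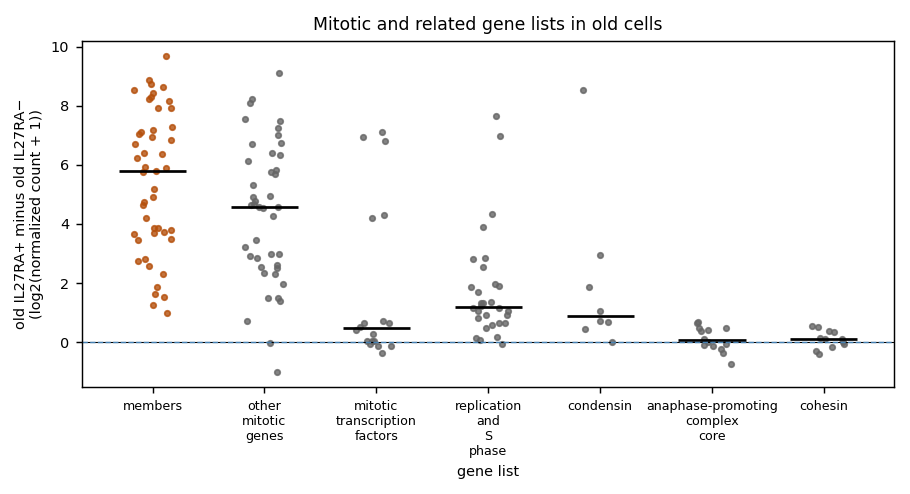
Fitted log2 differences between old IL27RA+ and old IL27RA- cells for the genes of each list, with each gene as a point and the list's median marked. The 47 mitotic genes have a median of 5.81 and the other mitotic genes of 4.58, while cohesin and the anaphase-promoting complex core lie around 0.11 and 0.07.

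Transcription of late cell-cycle genes is known to run through the DREAM and MuvB complexes with Mybl2 and Foxm1, which act at CHR elements (TTTGAA or TTCGAA), often beside a CCAAT box bound by NF-Y. Of the 18 listed regulators 5 were higher in old IL27RA+ cells at an unadjusted p under 0.05, against 3.72% of all genes tested, and 0 were called by limma. E2f8 was at 239, 121 and 415 in old IL27RA+ and 0, 1.04 and 1.26 in old IL27RA-, and Mybl2 was at 326, 259 and 262 and at 0, 11.4 and 0. E2f2 had reads in the 3 old IL27RA+ libraries, at 98.0, 71.8 and 190, and in 1 of the other 9 (36.7 in young IL27RA- replicate 3). Foxm1 overlapped between the old groups, at 64.7, 125 and 238 against 0, 2.08 and 82.9. The differences of the MuvB subunits Lin9, Lin37, Lin52 and Lin54 ran from 0.04 to 0.42. The median over the 18 was 0.48.

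These elements were counted in the promoters of the 47 genes, since the genes were high or low in largely shared libraries. RefSeq promoter windows on GRCm38.p6, from 250 bases before to 50 after a gene's start, were found for 39 of the 47 genes, in 41 windows. Those of Ccna2, Aurkb, Incenp, Spc24, Ska1, Kif20a, Tpx2 and Fam64a were not used here. TTTGAA, read as TTCAAA on the other strand, was in 33 of 41 windows (80.5%), against 17.9% of all 32851 windows. TTCGAA, which reads alike on both strands, was in 3 (7.32%, against 1.56%). CCAAT, read as ATTGG on the other strand, was in 31 (75.6%, against 37.4%). A window with either of the first 2 and also CCAAT made up 29 of 41 (70.7%), against 7.53% of all windows. Matches were counted on both strands, matches of different motifs may share bases, and a match is a run of letters, not a shown binding site. The sequences below run 5′ to 3′ on the gene's strand, from 120 bases before to 30 after the start, with matches in capitals, for the 6 genes of smallest p in old cells, among those given in every library above, that hold TTTGAA or TTCGAA. They are Spag5 (chr11:78301471-78301620, plus strand), Bub1 (chr2:127831830-127831979, minus), Ckap2l (chr2:129297183-129297332, minus), Anln (chr9:22389177-22389326, minus), Mki67 (chr7:135716350-135716499, minus) and Cdc20 (chr4:118437314-118437463, minus).
Spag5: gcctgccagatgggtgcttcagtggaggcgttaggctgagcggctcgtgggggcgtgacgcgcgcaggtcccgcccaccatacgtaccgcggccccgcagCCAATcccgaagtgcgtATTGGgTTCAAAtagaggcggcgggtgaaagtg
Bub1: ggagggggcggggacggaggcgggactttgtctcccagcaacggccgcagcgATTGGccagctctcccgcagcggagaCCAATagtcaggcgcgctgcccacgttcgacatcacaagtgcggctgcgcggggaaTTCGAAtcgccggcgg
Ckap2l: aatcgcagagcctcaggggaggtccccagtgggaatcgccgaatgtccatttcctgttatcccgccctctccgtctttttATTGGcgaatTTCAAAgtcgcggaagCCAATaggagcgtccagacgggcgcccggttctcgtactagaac
Anln: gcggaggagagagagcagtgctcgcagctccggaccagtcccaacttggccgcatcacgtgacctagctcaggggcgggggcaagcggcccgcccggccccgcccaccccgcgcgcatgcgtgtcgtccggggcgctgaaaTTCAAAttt
Mki67: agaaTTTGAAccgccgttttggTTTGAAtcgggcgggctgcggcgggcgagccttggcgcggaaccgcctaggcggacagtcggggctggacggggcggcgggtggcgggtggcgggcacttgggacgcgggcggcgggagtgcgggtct
Cdc20: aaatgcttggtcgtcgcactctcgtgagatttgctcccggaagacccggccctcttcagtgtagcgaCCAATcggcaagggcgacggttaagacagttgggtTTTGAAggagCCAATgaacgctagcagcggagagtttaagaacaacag

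The printed windows differ in layout. Bub1 is the one with TTCGAA, which lies after its start, and it has a CCAAT on each strand before the start. In Cdc20 a TTTGAA stands 4 bases before a CCAAT. In Spag5 a CCAAT on the other strand stands next to TTCAAA. Mki67 has a pair of TTTGAA matches at the far end and Anln a TTCAAA after its start, and neither has CCAAT in the printed stretch. The 30 bases after the start were found in a GENCODE transcript for Spag5, Bub1, Ckap2l and Cdc20. For Anln and Mki67 they were found in none, so positions relative to their starts are less sure. Spag5 and Bub1 had no read in old IL27RA- cells, whereas Cdc20 had 151 or more normalized counts there.

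Markers of other cell types moved with some of these groups. The 17 macrophage genes in the table, of which Vcam1 rose by the test in young IL27RA+ cells, summed to 6186, 2400 and 9743 in old IL27RA+ and 1577, 1187 and 1356 in old IL27RA- libraries. Young IL27RA+ libraries had 10523, 6463 and 9777 and young IL27RA- libraries 1976, 2358 and 1703, and 4 of the 17 genes (Emr1, Fcgr1, Cd5l and Timd4) had no read in old IL27RA- and 2 of them (Emr1 and Fcgr1) none in young IL27RA- cells. In old cells 15 of the 17 were higher in IL27RA+, against 51.9% of all genes tested, and 8 did not overlap, against 7.23%. In young cells 16 were higher, against 52.3%, and 10 did not overlap, against 5.05%. Old IL27RA+ replicates 1 and 3 and young IL27RA+ replicates 1 and 2 were high in both the macrophage and the mitotic genes. They had 6186 or more in macrophage genes and 24730 or more in mitotic genes. Young IL27RA+ replicate 3 had 9777 in macrophage genes and 4613 in mitotic genes, old IL27RA+ replicate 2 had 2400 and 27707, and young IL27RA- replicate 1 had 1976 and 16607. The 2400 of old IL27RA+ replicate 2 was above every IL27RA- library, the highest of which had 2358. Of the 12 erythroid genes tested, 9 were higher in old IL27RA+ than in old IL27RA- cells, against 51.9% of all genes tested. Among the 12, 2 did not overlap, against 7.23%, and the median difference was 0.61. In young cells 12 of the 12 were higher in IL27RA+, against 52.3% of all genes tested, with 5 that did not overlap, against 5.05%, and a median of 3.46. No erythroid gene was called in either fraction comparison. Genes of committed and multipotent progenitors summed to 14515 to 17255 in old IL27RA+ and 15184 to 19505 in old IL27RA- libraries, which overlapped. Of the 7 progenitor genes tested, 4 were higher in old IL27RA+, against 51.9% of all genes tested, with a median difference of 0.02 and a largest of 5.82. Among the 7, 1 was higher without overlap, against 7.23%, and 2 were higher at an unadjusted limma p under 0.05, against 3.72%. None of the 7 was called. Of the 17 HSC identity genes 4 did not overlap and were lower in old IL27RA+ cells, against 5.38% of all genes tested, among them Procr (7427 to 9323 against 11868 to 15274) and Hoxb5 (449 to 627 against 1059 to 1695). A further 1 of the 17 did not overlap and was higher, against 7.23%, and limma called 0 of them in old cells. The part of these cell types in the mitotic gene levels was not tested.

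**Figure D5:**
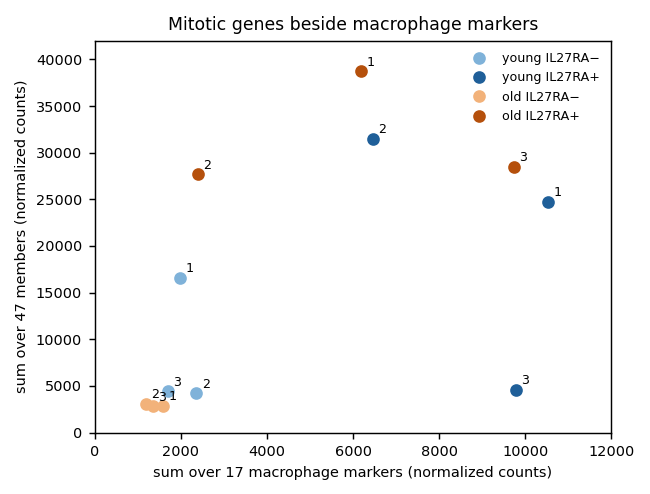
Summed level of the 47 mitotic genes against that of the 17 macrophage genes in the 12 libraries, with each library as a point coloured by group and numbered by replicate. Young IL27RA+ replicate 3 (9777 macrophage, 4613 mitotic) and old IL27RA+ replicate 2 (2400 and 27707) lie far apart. The other IL27RA+ libraries lie high on both axes, at 6186 or more and 24730 or more, and the IL27RA- libraries lie at 2358 or less on the macrophage axis.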

How the data were processed

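The deposited table holds, per gene and library, log2 values. Judged from the numbers themselves, each is log2 of (reads / library size factor + 1). Per the submitters' processing notes, HTSeq, DESeq2, TopHat2 2.1.1 and FastQC 0.11.5 were used, though not which did what. The authors' genome build, like their handling of reads shared by near-identical genes, is not stated in the labels or the table. With the log and the scaling undone, 100% of values were whole reads, within 0.01 reads. Of 20473 lines, 1 damaged line (the gene Mtbp, a deposited value off the log2 scale, so that its column was recorded as other in unit) and 15 repeats were left out. The 14803 genes with at least 10 (2 to the power of the deposited value) in at least 3 of 12 libraries were fitted with limma 3.58.1 (R 4.3.3), a variance trend and 1 mean per group, with 8 residual and 6.58 prior degrees of freedom, Benjamini-Hochberg adjustment and a threshold of 0.05. Each of the 47 genes reached 10 in at least 5 libraries. An exact permutation test of 3 against 3 cannot go below p = 0.1 and was not used. On simulated data for the old comparison, over 14803 genes, 7.5% of 200 genes changed 4-fold and 98.5% of those changed 16-fold were called. Those rates need not hold for the 47 mitotic genes, whose SE in the old comparison had a median of 1.69, against 0.60 over all genes tested. The simulation therefore does not show how large a change in the 47 would have been called.

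Members and lists were chosen with earlier results of these data known. Values are given in every library for the 2 genes of each of 10 roles with the smallest p in the old comparison (3 in roles of 6 or more genes). Outside the 47, up to 3 genes per list with the smallest p were eligible to be named, and Pttg1, Foxm1, the MuvB subunits, Vcam1, Procr and Hoxb5 were named after their values were seen. Alternatives were another pseudocount, filter, scaling and test, library weights, the compared groups alone, a replicate block and leaving out each library.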

Additional observations from a re-analysis of the deposited data

How the results depend on the processing

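In the old comparison, where 0 of 47 were called, there were 3 with a pseudocount of 10, 1 with no filter, 1 with a filter of 6 libraries (which drops Spag5), 23 with library weights and 14 with only the compared groups. TMM scaling, limma voom and the replicate block called 0. Leaving out each library in turn gave 0 to 12 calls in the old comparison, 0 to 4 in the young, 0 to 1 between ages in IL27RA- cells and 0 in the other 2. Calls over all genes under alternatives are given below for the old comparison alone. The leave-one-out medians ran from 5.24 to 5.93 in the old comparison, 1.54 to 4.14 in the young, -2.25 to 0.34 between ages in IL27RA- cells and 0.17 to 2.03 in IL27RA+ cells. The sign in IL27RA- cells turned without young IL27RA- replicate 1, which also gave the 4.14, and 0.17 was the value without young IL27RA+ replicate 3. Over all genes, calls in the old comparison numbered 3, against 86 with library weights, 29 with only the compared groups, 24 without young IL27RA- replicate 1, 10 with a pseudocount of 10 and 0 with voom. The 23 genes given in every library kept a positive difference in all 459 alternative values of the old comparison, of which 56 passed the threshold. Correlations of same-numbered deviations ran from -0.054 to 0.106 over 18 pairs, 1 over 0.1, but these include pairs of different ages. Same-numbered IL27RA- and IL27RA+ libraries of the same age gave 0.106, 0.028 and 0.017 (young) and 0.031, 0.004 and 0.096 (old). Other-numbered ones of the same age gave -0.068 to 0.038. Whether replicate numbers pair the fractions therefore stayed undecided. With a replicate block the old comparison had 0 calls and a median of 5.81. The edgeR alternative was not run, since the table holds log2 values. Depth limits genes with few reads: 13 of the 47 had 3 reads or fewer over the old IL27RA- libraries, so their differences depend on the pseudocount.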
